A study of Mus musculus with 4 samples.

Results

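The genes described here are 8 dual-specificity phosphatases, Dusp1, Dusp2, Dusp4, Dusp5, Dusp6, Dusp8, Dusp10 and Dusp14, chosen by symbol from the 31053 genes in the feature lists. All 8 were found, each once. They were followed in single-cell RNA-seq of kidneys from 10-week-old C57BL/6 mice (C57BL/6J in the protocol) given recombinant human FGF23 (rhFGF23), a bone-derived hormone that lowers phosphate reabsorption and acts on tubule cells carrying the co-receptor Klotho. The 4 libraries are labelled 0 h, 1 h, 4 h and 12 h after a single intraperitoneal injection; the dose is labelled 0 µg per mouse at 0 h and 10 µg per mouse at the other times. No gene was altered in any group, and kidneys of male and female mice were digested together in pairs, with dead cells removed by annexin V before loading. The 0 h library serves as the control throughout; its deposited matrix carries a name that speaks of saline and 1 h, so whether its mice were injected cannot be settled from the labels.

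Dual-specificity phosphatases remove phosphate from both the threonine and the tyrosine of an activated MAP kinase and so end its signal. Several of their genes are themselves switched on by the kinases they inactivate, which makes their transcripts a common readout of recent MAP kinase activity. FGF receptors signal through the RAS, RAF, MEK and ERK cascade, and ERK-selective phosphatases such as Dusp6 are among its feedback inhibitors. Dusp1, Dusp2, Dusp4 and Dusp5 are nuclear proteins, of which Dusp5 is selective for ERK. Dusp8 and Dusp10 act mainly on JNK and p38, and Dusp14 is a small atypical member without the MAP-kinase-binding domain.

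Levels are given as CPM, the UMIs (distinct captured transcript molecules) of a gene per 1000000 UMIs of a cell class in a library. With 1 library at each time there is no replicate error and no test. Intervals are exact 95% intervals that cover counting error only. "Rose" and "fell" are used for a change of at least 2-fold against the 0 h library with at least 20 UMIs in both libraries together, and such genes are called past 2-fold.

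The members lie on 8 chromosomes (GENCODE vM21 annotation, GRCm38): Dusp10 at chr1:184013302-184075636, Dusp2 at chr2:127336159-127338376, Dusp8 at chr7:142079490-142095843, Dusp4 at chr8:34807297-34819894, Dusp6 at chr10:99263231-99267489, Dusp14 at chr11:84048041-84069261, Dusp1 at chr17:26505590-26562128 and Dusp5 at chr19:53529109-53542431. Dusp1, Dusp8 and Dusp14 are on the minus strand. Dusp1 and Dusp10 overlap other listed genes on the opposite strand (Gm8225 and Ergic1, and 1700056E22Rik).

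The promoters of 5 genes are printed because those genes changed in the proximal tubule with different timing. Each is the sequence (GRCm38.p6) directly upstream of the RefSeq start. It reads 5′ to 3′ on the gene's own strand and stops before any annotated exon of the gene. The Dusp1 and Dusp8 windows lie inside the GENCODE bounds given above, so the annotations place those starts differently. Capitals mark the matches to the searched motifs other than GGGCGG. The windows are chr10:99262981-99263230 for Dusp6, chr19:53528895-53529108 for Dusp5, chr2:127335909-127336158 for Dusp2, chr7:142095285-142095534 for Dusp8 and chr17:26508520-26508722 for Dusp1.
Dusp6: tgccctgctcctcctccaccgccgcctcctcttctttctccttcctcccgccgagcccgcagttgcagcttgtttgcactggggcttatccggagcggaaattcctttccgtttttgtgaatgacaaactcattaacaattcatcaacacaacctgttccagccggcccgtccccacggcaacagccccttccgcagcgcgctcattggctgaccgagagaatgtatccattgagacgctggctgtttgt
Dusp5: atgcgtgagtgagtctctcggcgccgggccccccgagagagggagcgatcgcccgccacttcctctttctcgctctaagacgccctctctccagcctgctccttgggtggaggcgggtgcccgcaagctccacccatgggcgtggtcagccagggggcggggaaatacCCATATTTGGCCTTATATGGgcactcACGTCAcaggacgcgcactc
Dusp2: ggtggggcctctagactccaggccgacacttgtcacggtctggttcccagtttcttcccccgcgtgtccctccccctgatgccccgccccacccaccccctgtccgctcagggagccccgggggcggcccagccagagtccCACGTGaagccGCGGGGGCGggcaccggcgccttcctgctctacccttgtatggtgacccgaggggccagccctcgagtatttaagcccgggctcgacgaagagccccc
Dusp8: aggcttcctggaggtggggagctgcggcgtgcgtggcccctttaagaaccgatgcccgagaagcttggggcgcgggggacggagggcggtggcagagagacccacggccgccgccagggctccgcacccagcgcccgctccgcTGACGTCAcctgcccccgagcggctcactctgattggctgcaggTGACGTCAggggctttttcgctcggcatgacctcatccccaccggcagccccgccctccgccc
Dusp1: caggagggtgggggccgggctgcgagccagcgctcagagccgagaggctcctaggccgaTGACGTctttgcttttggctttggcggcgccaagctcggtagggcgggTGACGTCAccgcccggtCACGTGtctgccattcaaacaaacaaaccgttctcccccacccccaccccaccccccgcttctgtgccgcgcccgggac

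Motifs were searched on both strands in the window from 250 bases before the start up to it, the gene's own annotated exons included, for the 7 members with an entry and for all 32851 promoters of that length. The cyclic AMP response element TGACGTCA, the classical site of CREB, was in 2 of 7 members and in 1.55% of all promoters. Dusp8 held it at 107 to 100 and again at 63 to 56 bases before the start, and Dusp1 at 143 to 136. The shorter TGACGT, which overlaps it in both orientations, was in 3 of 7 members and 6.47% of all promoters; it added a site at 191 to 186 in Dusp1 and at 56 to 51 in Dusp5. The CArG box, the site of serum response factor, was in 1 of 7 members and 1.47% of all promoters, and Dusp5 held a pair of them side by side, at 82 to 73 and 72 to 63. The E-box CACGTG was in Dusp1 and Dusp2 (6.02% of all promoters), and the EGR motif GCGNGGGCG in Dusp2 (4.7%). The ETS motif CCGGAAG (6.91%) and the AP-1 motif TGANTCA (6.75%) were in 0 of 7, and GGGCGG, the GC box, was in 6 of 7 and in 32.7% of all promoters. Dusp6 held none of these motifs in its window. A match describes the letters and not a bound site.

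The 4 libraries held 12245 to 13813 barcodes and 139675666 to 158838728 UMIs, and 8834 to 10194 cells per library were kept after filters and removal of called doublets. Between 26 and 39 kept barcodes were shared by any pair of libraries. Proximal-tubule-like (PT-like) cells numbered 6590, 6299, 7307 and 6346 at 0, 1, 4 and 12 h, and their defining markers were highest in that class for 12 of 12 genes. Cells like the distal convoluted and connecting tubule (DCT/CNT-like), the segment richest in Klotho, numbered 500, 482, 657 and 604, with 8 of 8 markers highest there. Class names were rebuilt here from these same marker genes, which also entered the clustering, so the marker counts are no check of the names. The names may differ from those of the study. PT-like clusters were also assigned to the segments S1, S2 and S3 by markers. Those without a clear lead for any segment were put with S2-like cells. These were clusters 0, 3 and 5, with leads of 0.06, 0.48 and 0.12 on the log2 scale, against 0.57 in cluster 13. The S2-like set is therefore partly undecided. The makeup of the PT-like class shifted: 2503, 2022, 1464 and 1058 of its cells were S3-like, and 1 male S3-like cluster (cluster 2) shrank from 1341 cells at 0 h to 1072, 210 and 67. Cluster 0, also male and S2-like without a clear lead, held 369, 369, 1143 and 829 cells. Whether cells moved between these clusters was not tested. Neutrophil-like cells numbered 352, 326, 79 and 59.

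In PT-like cells, 5 of the 8 genes were higher by at least 2-fold at 1 h (Dusp2, Dusp4, Dusp5, Dusp6 and Dusp8) and none was lower. Among all 13673 genes with at least 20 UMIs in that comparison, 0.819% were past 2-fold higher and 2.09% lower. At 4 h, 4 were higher (Dusp4, Dusp5, Dusp6 and Dusp8; background 2.89%) and Dusp1 was lower (background 3.32%). At 12 h none was higher (background 2.67%) and 2 were lower, Dusp1 and Dusp8 (background 3.02%). Of the 8 genes, 7 reached 20 UMIs in PT-like cells; Dusp10 did not. In S3-like cells alone the 1 h count was 2, Dusp2 and Dusp6 (background 0.762%).

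**Figure D1:**
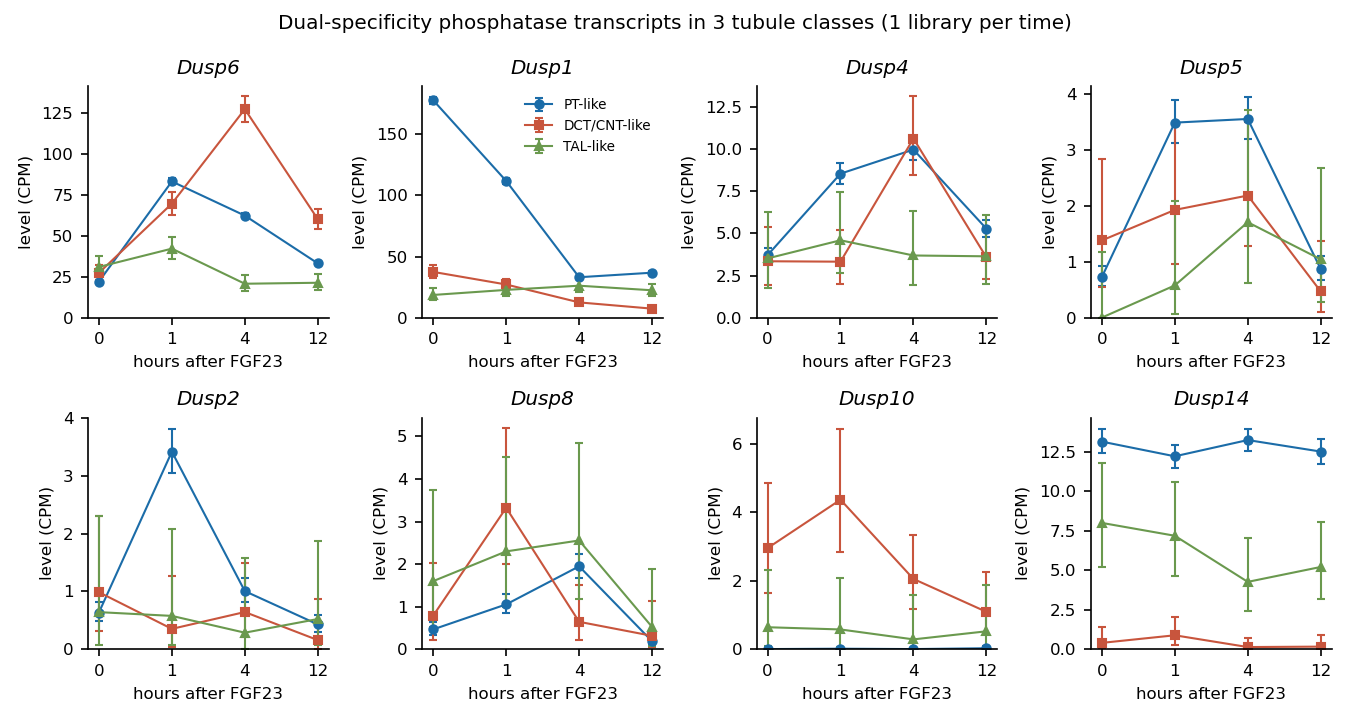
Level of each phosphatase (CPM, y axis) at 0, 1, 4 and 12 h after FGF23 (x axis, times equally spaced) in PT-like, DCT/CNT-like and TAL-like (thick ascending limb) cells. Points are 1 library each and bars are exact 95% Poisson intervals for counting error; Dusp6 peaked at 1 h in PT-like cells (83.3 CPM) and at 4 h in DCT/CNT-like cells (128 CPM), and each panel has its own y range.

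Dusp6, the cytoplasmic phosphatase selective for ERK, stood in PT-like cells at 22.1, 83.3, 62.4 and 33.2 CPM at 0, 1, 4 and 12 h, from 1951, 7611, 6161 and 2721 UMIs. It was therefore highest in the 1 h library and, at 12 h, still above the 0 h library. Its log2 ratio to 0 h was 1.92 (1.85 to 1.99) at 1 h, a 3.78-fold rise. The 4 h ratio was 1.5 (1.43 to 1.58), a 2.83-fold rise. At 12 h it was 0.59 (0.51 to 0.68), short of 2-fold.

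The distal class gave a later peak: Dusp6 in DCT/CNT-like cells stood at 27.4, 69.8, 128 and 60.3 CPM at 0, 1, 4 and 12 h, from 139, 399, 995 and 387 UMIs. The highest library was that of 4 h, and all 3 later libraries lay past 2-fold above 0 h. The log2 ratios were 1.35 (1.07 to 1.64), 2.22 (1.96 to 2.49) and 1.14 (0.86 to 1.43). Between 1 h and 4 h the level went up by 0.87 (0.70 to 1.04) on the log2 scale in DCT/CNT-like cells, and in PT-like cells it changed by -0.42 over the same step. The order of the 1 h and 4 h libraries was thus opposite in these classes, with intervals of counting error that do not meet; with 1 library per time the difference has no replicate check.

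Cells of the thick ascending limb (TAL-like) carried Dusp6 at 31.0, 42.2, 20.7 and 21.3 CPM, with log2 ratios of 0.44, -0.58 and -0.54, none past 2-fold. Of the 2 TAL-like clusters, 1 was past 2-fold lower at 4 h (-1.34). Endothelial-like cells stood at 109, 114, 117 and 98.2 CPM and T/NK-like cells (T and natural killer cells) at 43.4, 41.2, 38.1 and 30.6. In both, every ratio was within 2-fold. Neutrophil-like cells gave 230, 198, 79.7 and 203 CPM, where the 4 h value rests on 12 UMIs.

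Per-cell detection showed the same order of libraries for Dusp6 as the summed counts. Of PT-like cells, 22.5%, 57.4%, 47.6% and 29.9% had a Dusp6 UMI, at median depths of 12290, 13028, 11654 and 10991 UMIs. After thinning every cell to 2000 UMIs, which left out 206, 82, 111 and 260 shallower cells, the shares were 4.43%, 15.9%, 11.5% and 6.38%. Positive cells held 1.32, 2.10, 1.77 and 1.44 Dusp6 UMIs on average, so both the share and the count per positive cell were highest at 1 h. The DCT/CNT-like shares were 22.8%, 45.6%, 57.8% and 37.9% unthinned, and 4.99%, 13.2%, 20.9% and 8.85% thinned, with 19, 18, 30 and 50 cells left out. Intercalated-like (IC-like) cells were the tubule class with the least Dusp6: 4.23%, 6.36%, 4.35% and 2.94% of them had a UMI at median depths of 11197 to 14294 UMIs, and 0%, 0%, 1.81% and 0% after thinning. The PT-like and DCT/CNT-like shares were above that level in every library.

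**Figure D2:**
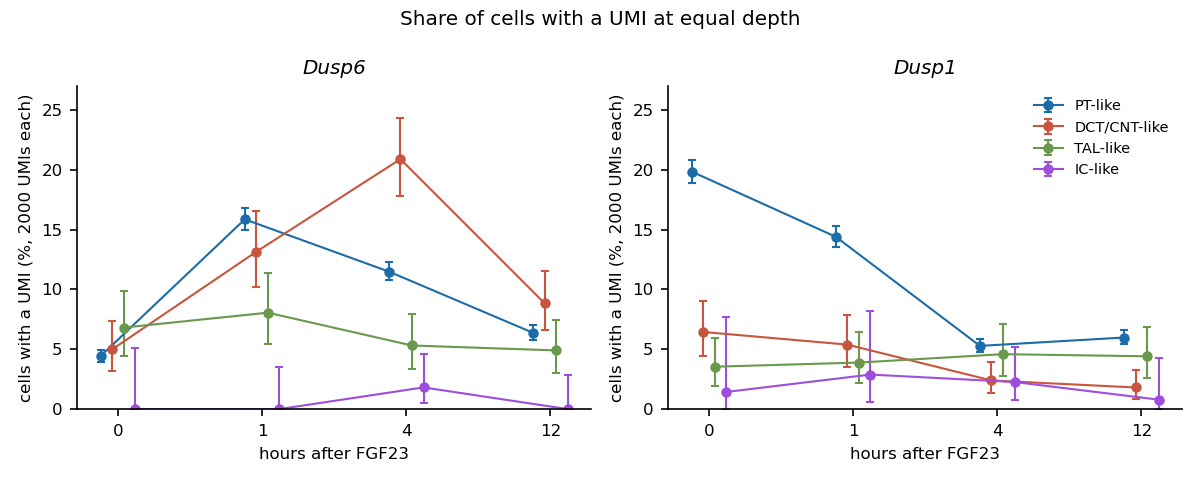
Share of cells with at least 1 UMI of Dusp6 (left) or Dusp1 (right) after each cell was thinned to 2000 UMIs (y axis, percent), by hours after FGF23 (x axis, equally spaced), in 4 tubule classes. Bars are exact 95% Clopper-Pearson intervals; Dusp6 in PT-like cells went from 4.43% at 0 h to 15.9% at 1 h, and Dusp1 from 19.9% to 5.28% at 4 h.

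The Dusp6 difference was spread over the proximal tubule and not carried by 1 group of its cells. Dusp6 was above its 0 h level in 17 of 17 PT-like clusters at 1 h, 16 of them past 2-fold, with log2 ratios from 0.66 to 2.56. At 4 h it was above 0 h in 17 of 17, and 15 were past 2-fold. At 12 h it was above in 15 of 16 clusters with enough UMIs and past 2-fold in 2. All 3 DCT/CNT-like clusters were past 2-fold at each time, with ranges of 1.39 to 2.46, 2.22 to 2.97 and 1.2 to 2.29.

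By segment, S1-like cells carried Dusp6 at 33.3, 134, 88.9 and 44.9 CPM, S2-like cells at 22.3, 78.9, 54.8 and 27.3, and S3-like cells at 14.7, 42.7, 32.4 and 19.6. Each segment peaked at 1 h, and at every time the level was highest in S1-like and lowest in S3-like cells. The 1 h log2 ratios were 2.01 (1.9 to 2.11), 1.82 (1.67 to 1.99) and 1.54 (1.41 to 1.68). Cells called female or male by Xist and Y-linked UMIs came from different animals within each library, so sex and animal cannot be told apart. Their segments differed too: at 0 h, 1718 of 3117 male-called PT-like cells were S3-like, against 78 of 1465 female-called ones. Female-called PT-like cells had 28.9, 121, 93.2 and 39.4 CPM of Dusp6 and male-called ones 21.0, 70.5, 50.7 and 33.0. The 1 h and 4 h log2 ratios were 2.07 and 1.69 for female-called cells and 1.74 and 1.27 for male-called cells, so that the level was higher at both times in either set.

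Dusp1, a nuclear phosphatase of p38, JNK and ERK and an immediate early gene of stressed and growth-factor-treated cells, went the other way. In PT-like cells it stood at 178, 112, 33.1 and 36.8 CPM at 0, 1, 4 and 12 h, from 15753, 10221, 3261 and 3014 UMIs. The 0 h library was the highest and both late libraries were low. The log2 ratio was -0.67 (-0.71 to -0.63) at 1 h, short of 2-fold. Dusp1 fell by 2.43 on the log2 scale by 4 h (ratio interval -2.48 to -2.38), to 0.186 of its 0 h level. The 12 h ratio was -2.28 (-2.33 to -2.22), and the step from 4 h to 12 h was 0.15.

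DCT/CNT-like cells held Dusp1 at 37.4, 27.1, 12.4 and 7.32 CPM, from 190, 155, 97 and 47 UMIs. The level was lower in each later library. Past 2-fold lower were the 4 h ratio, -1.59 (-1.96 to -1.23), and the 12 h ratio, -2.35 (-2.85 to -1.89). In TAL-like cells it was 18.5, 22.7, 26.1 and 22.4 CPM, with ratios of 0.29, 0.49 and 0.27, so all 3 later libraries were slightly above 0 h and none past 2-fold. Among the other classes, IC-like cells gave ratios of -0.35, -1.86 and -1.78, the later times past 2-fold lower (background 1.37% and 1.78%), and principal-cell-like (PC-like) cells gave 0.45, -0.48 and -1.42, past 2-fold lower at 12 h from 32 and 12 UMIs (background 3.14%). Endothelial-like cells, at 552, 496, 413 and 298 CPM, gave none past 2-fold. Neutrophil-like cells, in which 94.9% to 100% of cells had a Dusp1 UMI, stood at 5931, 6290, 4730 and 5072 CPM and stayed within 2-fold. It fell in B-like cells from 138 CPM at 0 h to 35.0 at 12 h (background 5.51%), and in T/NK-like cells from 161 to 48.3 (background 3.6%).

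Of PT-like cells, 46.9%, 38.3%, 17.6% and 22.8% had a Dusp1 UMI unthinned, and 19.9%, 14.4%, 5.28% and 5.98% at 2000 UMIs per cell. All 6 neutrophil markers had a UMI among PT-like cells in every library, but G0s2 made up most of their sum, at 107.5, 74.6, 296 and 141 CPM in PT-like cells against 874 to 2357 in neutrophil-like cells. The other 5 markers summed to 12.6, 7.76, 2.23 and 1.37 CPM at 0, 1, 4 and 12 h, against 126032 to 187449 in neutrophil-like cells. In the ratio of neutrophil-like cells, those 5 markers would bring 0.399, 0.265, 0.0727 and 0.055 CPM of Dusp1 into the PT-like sums. All 6 markers, G0s2 included, would bring 3.75, 2.77, 9.65 and 5.70 CPM, against 33.05 CPM of Dusp1 measured in PT-like cells at 4 h. Which sum is nearer the true carry-over was not tested.

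The 0 h level of Dusp1 was uneven over the proximal tubule. Across the 17 PT-like clusters it ran from 8.02 to 442 CPM, a 55.1-fold range, whereas Dusp6 ran from 6.13 to 43.9 CPM and Dusp14 from 8.13 to 23.8. The 7 clusters with over 100 CPM of Dusp1 at 0 h had 389 to 771 CPM of Jun and 54.2 to 190.2 of Fos, both immediate early genes, and the other 10 had 9.70 to 244 and 1.28 to 39.4. The summed level of the listed heat-shock genes was 1099 to 3561 CPM in the first set and 1857 to 3811 in the other. The first set held 53.9%, 55.0%, 47.7% and 40.3% of PT-like cells at 0, 1, 4 and 12 h. Dusp1 was below its 0 h level in 17 of 17 clusters at 4 h, and 13 of them were past 2-fold lower, with ratios from -3.58 to -0.27. At 12 h 15 clusters were past 2-fold lower, and at 1 h 3 were lower and 1 was higher (cluster 22, from 14.9 to 37.0 CPM). With the 17 clusters held at their 0 h shares of cells, the same genes passed 2-fold in each comparison.

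**Figure D3:**
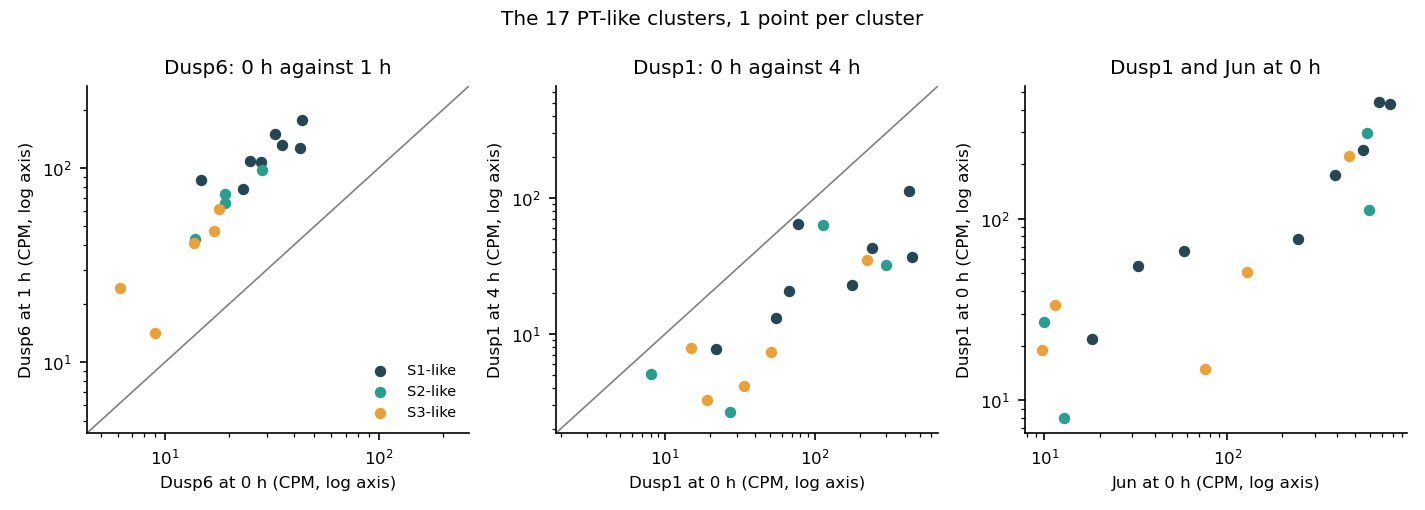
The 17 PT-like clusters, 1 point each, coloured by segment, on log axes in CPM: Dusp6 at 0 h against 1 h, Dusp1 at 0 h against 4 h, and Jun against Dusp1 at 0 h. The grey line marks equal levels; all 17 points lie above it for Dusp6 and below it for Dusp1. The clusters of 1 library share depth and preparation, and the Jun panel is a description.

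Whole-class levels of Jun and Fos also differed between libraries. Jun in PT-like cells stood at 364, 346, 289 and 171 CPM, and Fos at 62.7, 83.9, 28.9 and 9.75. Both were lowest at 12 h, and Fos was highest at 1 h. Of 8 heat-shock genes listed as markers of tissue dissociation, 0 passed 2-fold in the PT-like class as a whole at any time, with median log2 ratios of 0.19, 0.48 and -0.20. The called sexes differed at 4 h. In male-called PT-like cells 2 of the 8 were past 2-fold higher and 0 lower (median 0.69). In female-called cells 0 were higher and 2 lower (median -0.255). The part of any of these in the Dusp1 difference was not tested.

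The Dusp1 ratios of male-called and female-called PT-like cells lay apart; the gap has no replicate check, and these cells came from different animals. Male-called PT-like cells held 228.5, 136, 26.4 and 44.8 CPM at the 4 times. Female-called cells held 108, 102, 61.7 and 36.3 CPM. The male-called level was above the female-called one at 0 h and below it at 4 h. At 4 h the male-called log2 ratio was -3.11 (-3.20 to -3.03), past 2-fold lower as were 3.5% of all genes tested. The female-called ratio was -0.81 (-0.91 to -0.71), short of 2-fold, which 2.03% of genes passed. At 12 h both were past 2-fold lower, at -2.35 and -1.58. Within segments at 4 h, S1-like cells gave -3.40 when male-called and -0.76 when female-called, and S2-like cells -3.21 and -0.85. In S3-like cells both were past 2-fold lower, at -3.76 when male-called (background 5.52%) and -1.88 (-2.74 to -1.08) when female-called (background 4.38%), the latter from 53 and 18 UMIs. In the whole segments the 4 h ratios were -2.38 in S1-like, -2.12 in S2-like and -3.84 in S3-like cells. No single S3-like cluster reached that last value: the 5 of them ranged from -3.02 to -0.93, and cluster 2, at 222 CPM the highest of them at 0 h, went from 1341 of 2503 S3-like cells to 210 of 1464. The DCT/CNT-like class gave -1.79 (-2.37 to -1.21) for male-called cells at 4 h. Its female-called cells gave -1.10 (-1.68 to -0.55), and these intervals overlap.

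**Figure D4:**
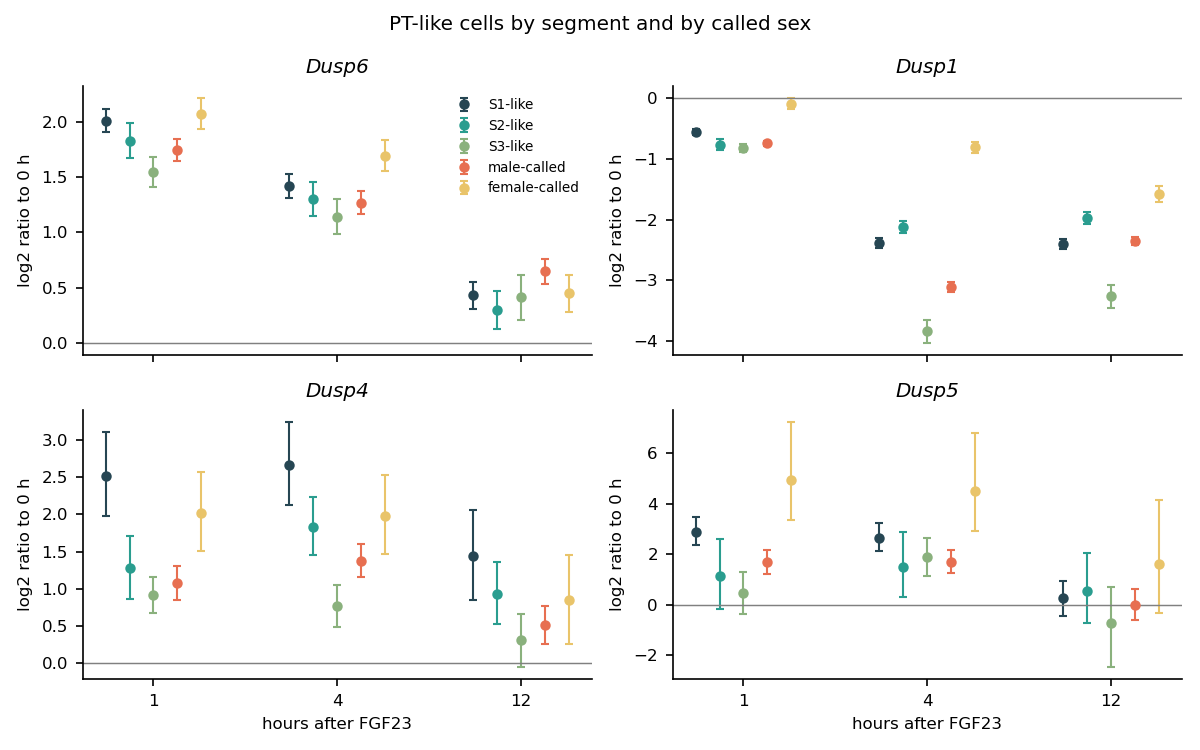
Log2 ratio of Dusp6, Dusp1, Dusp4 and Dusp5 to the 0 h library (y axis) at 1, 4 and 12 h (x axis) in PT-like cells of 3 segments and of either called sex; bars are exact 95% intervals for counting error and each panel has its own y range. For Dusp1 at 4 h the male-called point is at -3.11 and the female-called point at -0.81, while for Dusp6 at 1 h all 5 points lie between 1.54 and 2.07.

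Dusp4, a nuclear phosphatase related to Dusp1 and a known target of ERK signalling, stood at 3.71, 8.55, 9.98 and 5.28 CPM in PT-like cells, from 328, 781, 985 and 433 UMIs. The 4 h library was the highest, with 1 h close to it. The log2 ratios were 1.21 (1.02 to 1.4), 1.43 (1.25 to 1.61) and 0.51. Dusp4 in DCT/CNT-like cells was at 3.35 and 3.32 CPM at 0 h and 1 h and at 10.6 CPM at 4 h, before 3.58 at 12 h. Only the 4 h library stood apart there, with a ratio of 1.67 (0.90 to 2.52) from 17 and 83 UMIs. Within the proximal tubule the 1 h ratio was 2.52 in S1-like, 1.27 in S2-like and 0.91 in S3-like cells, and the 4 h ratio was 2.66, 1.83 and 0.78. S3-like cells had the highest 0 h level of the 3 segments (5.41 CPM against 1.15 in S1-like cells), and summed as a segment they did not pass 2-fold. The 3 largest S3-like clusters did at 4 h: cluster 2, which shrank from 1341 to 210 cells, went from 6.52 to 13.6 CPM (1.06), cluster 8 from 2.38 to 6.97 (1.55) and cluster 9 from 4.90 to 11.8 (1.27). At 12 h the S1-like ratio was 1.44 (0.85 to 2.06), past 2-fold as were 2.48% of all genes tested there, although the whole PT-like class was not.

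Dusp5, the nuclear phosphatase selective for ERK, was sparse in PT-like cells at 0 h and 12 h, with 64 and 71 UMIs, and had 318 UMIs at 1 h and 350 at 4 h. Its level was 0.723, 3.48, 3.55 and 0.866 CPM, so the 1 h and 4 h libraries were alike and both stood well above the others. The log2 ratios were 2.27 (1.88 to 2.68) and 2.29 (1.91 to 2.70) at these times, and 0.26 at 12 h. Most of these UMIs came from S1-like cells, which held 32, 269, 259 and 46 of them. S3-like cells held 25, 29, 45 and 5, with a ratio of 0.44 at 1 h and 1.88 at 4 h. T/NK-like cells carried 45.6, 41.2, 51.7 and 18.5 CPM, where only 12 h was past 2-fold lower.

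Dusp2, a nuclear phosphatase best known from activated lymphocytes, had 56, 312, 99 and 35 UMIs in PT-like cells, or 0.633, 3.42, 1.00 and 0.427 CPM. The 1 h library alone was past 2-fold, with a log2 ratio of 2.43 (2.02 to 2.87), a 5.40-fold rise. At 4 h the ratio was 0.67 (0.18 to 1.16). A single cell held 17 of the 56 UMIs at 0 h. With the cell of most UMIs left out of each library, an alternative chosen after seeing the data, the ratios were 2.91, 1.16 and -0.13, so that 4 h then passed 2-fold. Of PT-like cells, 0.607%, 3.70%, 1.30% and 0.536% had a Dusp2 UMI, against 40.3%, 42.1%, 31.2% and 29.0% of T/NK-like cells. T/NK markers summed to 0.476 to 1.53 CPM in PT-like cells, which in the ratio of T/NK-like cells would bring 0.015 to 0.046 CPM of Dusp2. S1-like cells held 222 of the 312 UMIs at 1 h. In T/NK-like cells Dusp2 stood at 271, 252, 223 and 154 CPM and in B-like cells at 275, 293, 235 and 139, each ratio within 2-fold.

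Dusp8, a phosphatase of JNK and p38, had 41, 96, 192 and 15 UMIs in PT-like cells, or 0.463, 1.05, 1.95 and 0.183 CPM. The 4 h library was the highest and the 12 h library the lowest of the 4. Its log2 ratios to 0 h, in order of time, were 1.18 (0.64 to 1.75), 2.07 (1.58 to 2.59) and -1.34 (-2.30 to -0.46). From 4 h to 12 h it fell by 3.41 on the log2 scale. Its UMIs in DCT/CNT-like cells were 4, 19, 5 and 2, and the 1 h ratio of 2.08 (0.49 to 4.09) rests on those few molecules. Its level was 28.5, 35.3, 25.2 and 30.0 CPM in endothelial-like cells, with no ratio past 2-fold.

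Dusp10, the other phosphatase of JNK and p38, was close to undetected in PT-like cells, with 0, 1, 0 and 2 UMIs among 81964023 to 98665014. A count of 0 is taken to allow up to 3 UMIs, a one-sided limit. DCT/CNT-like cells had 15, 25, 16 and 7 UMIs, or 2.95, 4.37, 2.05 and 1.09 CPM, and the 12 h ratio was -1.44 (-2.97 to -0.06). T/NK-like cells had 36.9, 41.2, 24.5 and 19.2 CPM. In neutrophil-like cells it had 0 UMIs in all 4 libraries.

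Dusp14, the atypical member, stood in PT-like cells at 13.1, 12.2, 13.2 and 12.5 CPM, from 1163, 1115, 1306 and 1025 UMIs. The log2 ratios were -0.11, 0.01 and -0.07, and no PT-like cluster passed 2-fold at any time. S2-like cells went from 18.6 CPM at 0 h to 12.5 at 12 h (-0.58), within 2-fold. Over the same times, cluster 0 of that set went from 12.9 to 9.19 CPM and cluster 3 from 22.5 to 19.05. Cluster 5 went from 22.9 to 16.2 and cluster 13 from 13.8 to 12.5. Cluster 0, the lowest of these at 0 h, grew from 369 to 829 cells. DCT/CNT-like cells held 1 to 5 UMIs per library and neutrophil-like cells none.

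In DCT/CNT-like cells 5, 5 and 4 of the 8 genes reached 20 UMIs in the 1 h, 4 h and 12 h comparisons. At 1 h 2 were past 2-fold higher, Dusp6 and Dusp8 (background 1.3%), and none lower (1.64%). At 4 h Dusp6 and Dusp4 were higher (3.33%) and Dusp1 lower (4.36%). At 12 h Dusp6 was higher (2.7%) and Dusp1 and Dusp10 were lower (2.56%). With cells limited to 25% mitochondrial UMIs, the 12 h ratio of Dusp6 was 0.80 and no longer past 2-fold, and the 12 h count was 1, Dusp1. The median mitochondrial share of DCT/CNT-like cells was 35.6%, 35.5%, 30.2% and 32.8% at 0, 1, 4 and 12 h. That limit therefore left out most of the class in every library.

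**Figure D5:**
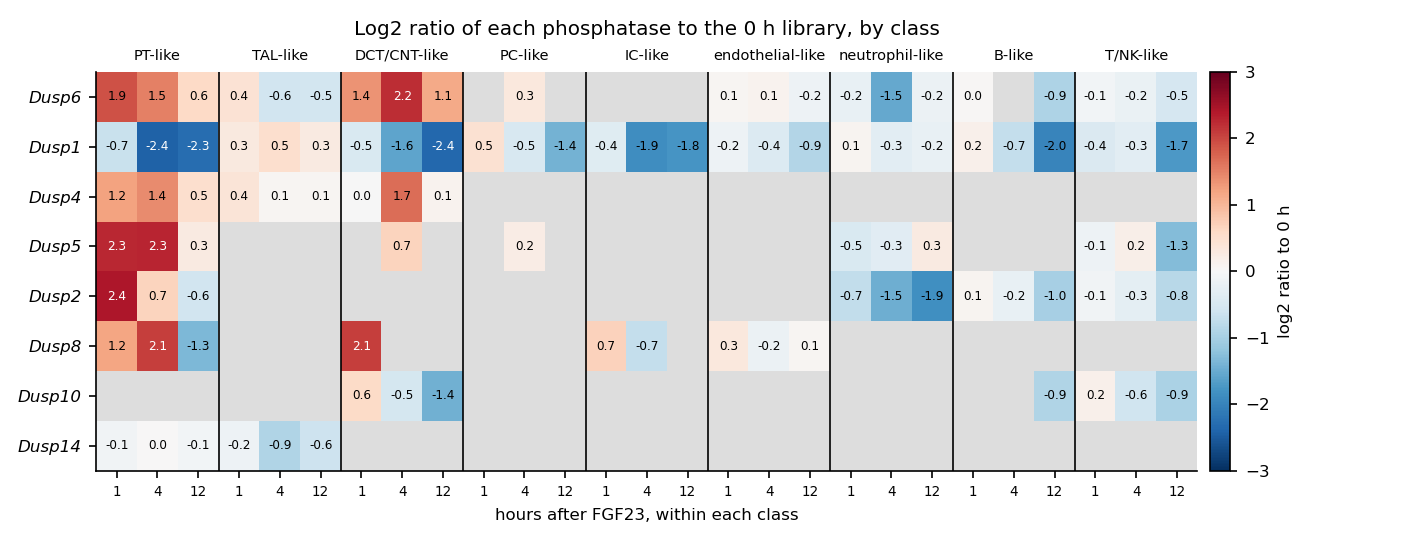
Log2 ratio to the 0 h library (colour and printed value) of the 8 phosphatases (y axis) at 1, 4 and 12 h (x axis) within each of 9 cell classes; grey cells had fewer than 20 UMIs in both libraries together. Values past 2-fold higher stand in the PT-like columns for Dusp6, Dusp4, Dusp5, Dusp2 and Dusp8 and in the DCT/CNT-like columns for Dusp6, Dusp4 and Dusp8, and Dusp1 is lower at 4 h and 12 h in PT-like, DCT/CNT-like and IC-like cells.

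Phosphatases outside the set were counted likewise. In PT-like cells, of the other dual-specificity MAP kinase phosphatases with enough UMIs (Dusp7, Dusp16 and Styxl1), 0 of 3 were past 2-fold at 1 h and at 12 h, and at 4 h only Styxl1 was, lower, from 17 and 8 UMIs. Dusp7, a cytoplasmic relative of Dusp6, stood at 5.20 CPM at 0 h and 4.53 at 1 h. In DCT/CNT-like cells Dusp7 rose at 4 h (57 to 189 UMIs, log2 ratio 1.11). Dusp9, the other cytoplasmic relative, had 21, 47, 80 and 171 UMIs there, with ratios of 0.99, 1.31 and 2.69, so that its highest library was 12 h and not 4 h as for Dusp6. Of 9 atypical phosphatases measured, none was past 2-fold higher in either class, and only Dusp15 was lower in PT-like cells, at 4 h and 12 h, from 34, 11 and 11 UMIs.

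The receptors and kinases upstream showed few differences past 2-fold. Of 5 FGF23 receptor genes in PT-like cells only Fgfr2 passed, lower at 4 h from 21 and 10 UMIs; Kl, which encodes Klotho, gave 209, 193, 128 and 123 CPM there, and 1342, 1496, 1367 and 970.3 in the DCT/CNT-like class. Of 21 listed genes of the RAS to ERK cascade in PT-like cells, 0 passed at 1 h and 4 h and 1, Ksr1, was higher at 12 h. Of 13 genes of the JNK and p38 cascades, 0 passed at any time in PT-like cells. In DCT/CNT-like cells 1 of the ERK-cascade genes, Frs3, was lower at 1 h from 21 and 4 UMIs. There, Map2k3, an upstream kinase of p38, was higher at 4 h (111 to 406 UMIs, log2 ratio 1.25) and Map2k6 lower.

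Other feedback and target genes of ERK changed beside the phosphatases. In PT-like cells, 5 of 15 were past 2-fold higher at 1 h: the transcription factor Egr1 (log2 ratio 3.26), Phlda1 (3.15) and the receptor-signalling inhibitors Spry1 (2.05), Spry4 (1.63) and Spry2 (1.2), with Spred3 lower. At 4 h Phlda1 (2.85), Spry1 (2.72), Spry4 (1.67) and Spry2 (1.12) were higher and Fos was lower. At 12 h Spry1 (1.81) and Phlda1 (1.06) were still higher, and Fos (-2.69), Egr1 (-2.05) and Myc (-1.39) were lower. Among 14 such genes in DCT/CNT-like cells, 3 were higher at 1 h and 9 at 4 h, among them Etv4 (2.78), Spry1 (2.02) and Spry2 (1.74), and 6 at 12 h. Fos was lower there at 4 h (-1.88) and 12 h (-2.88), and Egr1 at 12 h (-1.43). In TAL-like cells 2 of 10 such genes were past 2-fold higher at 1 h, Fos among them (40 and 138 UMIs), and 0 lower. At 4 h 0 of 11 passed there, and at 12 h 0 of 11 were higher and 2 lower. No share of all genes past 2-fold is given for TAL-like cells, so these counts stand without a background. All these comparisons share the 0 h library with those of the phosphatases.

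Genes whose levels ran most like each member's over the same 36 points (9 classes in 4 libraries, log2 of CPM + 1) are given as a description. The points of a library share its depth and those of a class share its cell type. Dusp1 ran most like Cebpb (Pearson r = 0.94), Dusp2 like Rhoh (0.97), Dusp5 like Efhd2 (0.93), Dusp8 like Lpar4 (0.89) and Dusp10 like Pacsin1 (0.93). Dusp14 ran most like Il34 (0.83). The nearest genes were less alike for Dusp6 (Gcnt2, 0.78) and Dusp4 (Lpl, 0.72).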

How the data were processed

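Single-cell RNA-seq (10x Genomics 3' V3) of kidney cells was measured in 4 libraries, 1 per time. The values are UMI counts per gene and barcode as deposited by the authors; the submitters' processing notes name Cell Ranger 3.1.0, STAR, Seurat and mm10, with no role given. Filters, normalization or doublet removal before deposit are not given in the sources used here.

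From these counts, barcodes with at least 300 genes and at most 50% mitochondrial UMIs were kept. Doublets were called from simulated neighbours at an assumed 0.8% per 1000 barcodes (643 to 926 calls per library, 6.78% to 8.33%) and removed. Cells of all libraries were clustered together on 2000 variable genes plus markers, without the 8 phosphatases, the listed pathway genes and sex genes (30 principal components, 20 neighbours, Leiden resolution 1.5), giving 45 clusters. Clusters were named from fixed marker lists, needing at least 3 detected markers; the naming thresholds were set after the clusters were seen, and 4.66% to 5.64% of cells stayed unnamed. UMIs were summed per class and library. CPM has exact Poisson intervals, ratios exact conditional binomial intervals and shares Clopper-Pearson intervals, all at 95%. With 1 library per group no p-value is given, and summed counts cannot separate more RNA per cell from other cells within a class. The ratio step was tested on simulated data.

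The 8 genes and all lists were chosen with earlier results of these data known. All 8 genes are named. Of the pathway lists, the named genes are the largest ratios with at least 100 UMIs, plus any that make up a count of 5 or fewer, which were picked after their values were seen. Carry-over was scaled from marker sums. Tools were Python 3.11.15, numpy 2.4.6, scipy 1.17.1, pandas 2.3.3, scikit-learn 1.9.0, leidenalg 0.10.2, igraph 0.11.9 and matplotlib 3.10.9. Alternatives changed the filters, doublet removal, scaling, clustering resolution, UMI minimum, sex and segment. Times not among the 4 libraries are not analysed here.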

Additional observations from a re-analysis of the deposited data

Results flagged for a closer look

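These are pairs of cell classes whose ratio to the 0 h library went opposite ways for the same gene. Each value is the first class's log2 ratio minus the second's. With 1 library per time none of these differences was tested.

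For Dusp6, TAL-like cells were below their 0 h level at 4 h and 12 h while PT-like and DCT/CNT-like cells were above theirs. At 4 h PT-like cells (1.5) and TAL-like cells (-0.58) differed by 2.08, and TAL-like against DCT/CNT-like cells (2.22) by -2.80. At 12 h the differences were 1.13 for PT-like against TAL-like cells and -1.68 for TAL-like against DCT/CNT-like cells. Neutrophil-like cells, with 12 Dusp6 UMIs at 4 h, gave -1.53 then, so that PT-like cells differed from them by 3.03 and DCT/CNT-like cells by 3.75.

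For Dusp1, TAL-like cells were above their 0 h level at 4 h (0.49), a change short of 2-fold, while most classes were below theirs. PT-like against TAL-like cells gave -2.92. TAL-like cells differed from IC-like cells by 2.36, from DCT/CNT-like cells by 2.08, from B-like cells by 1.21, from endothelial-like cells by 0.91 and from neutrophil-like cells by 0.82.

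At 1 h Dusp1 in neutrophil-like cells was near its 0 h level (0.09), while PT-like, DCT/CNT-like and T/NK-like cells were among the classes below theirs. The difference was -0.76 for PT-like against neutrophil-like cells, -0.55 for DCT/CNT-like against neutrophil-like cells, and 0.52 for neutrophil-like against T/NK-like cells. Neutrophil-like cells numbered 352 and 326 at 0 h and 1 h.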

How the results depend on the processing

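No paired analysis was possible because each group has 1 library; for the same reason no library could be left out. The alternatives reuse the same libraries and largely the same cells, so the recomputed ratios are not independent checks. Each of the 225 log2 ratios that were recomputed for a gene past 2-fold kept its direction, and 219 stayed past 2-fold. Of the 6 that did not, 3 were in S3-like cells (Dusp4 at 1 h and 4 h, Dusp5 at 1 h), and the others were Dusp1 at 4 h in female-called cells, Dusp8 at 12 h in male-called cells, and Dusp6 at 12 h in DCT/CNT-like cells under the 25% mitochondrial limit. Over all genes of the set, 302 of 386 recomputed ratios lay within the counting interval of the reported value and 84 outside it; 29 of 32 shares of cells with a UMI moved with the depth to which cells were thinned.

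The number of the 8 genes past 2-fold moved by over 1.5 times in these cases. In PT-like cells the 1 h count of 5 was 2 in S3-like cells, and the 12 h count of 2 was 1 in male-called cells, in S2-like cells, in S3-like cells and with at least 100 UMIs. In DCT/CNT-like cells the 1 h count of 2 was 1 under the 25% mitochondrial limit, in male-called cells, in female-called cells and with at least 100 UMIs, and 4 with no UMI minimum. The 12 h count of 3 there was 1 under the 25% limit and 7 with no UMI minimum. Subsets of cells hold fewer UMIs, so genes near 20 UMIs can drop out; otherwise the cause was not tested. The settings chosen after seeing the data, clusters held at their 0 h shares and barcodes shared between libraries left out, changed no count. Depth limits the sparse genes: in DCT/CNT-like cells Dusp5 and Dusp8 had at most 17 and 19 UMIs in any library.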

Other observations

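Outside the 9 classes compared, stromal-like cells had Dusp8 at 83.0, 152, 92.9 and 41.3 CPM at 0, 1, 4 and 12 h, from 46, 27, 49 and 18 cells, too few for a comparison. In neutrophil-like cells Dusp2 stood at 36.7, 21.98, 13.3 and 10.2 CPM and Dusp5 at 67.0, 49.0, 53.1 and 81.3, while Dusp10 and Dusp14 had no UMI there in any library. Only 13, 7, 1 and 1 of these cells had a Dusp2 UMI, and 34, 23, 8 and 8 had a Dusp5 UMI. In IC-like cells Dusp8 stood at 10.1, 16.2, 6.15 and 1.10 CPM, with a UMI in 9, 17, 14 and 2 cells. Dusp10 had 5, 10, 11 and 10 UMIs in IC-like cells.

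Within PT-like cells, Dusp5 in female-called cells had 3, 111, 98 and 10 UMIs at 0, 1, 4 and 12 h, and in male-called cells 53, 168, 171 and 42. The PT-like cell with 17 Dusp2 UMIs at 0 h lay in cluster 30 and held all of that cluster's Dusp2 at 0 h; the cluster had 9, 3 and 1 UMIs at the later times.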
